A study of Danio rerio with 8 samples.

Results

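Endothelial cells line the blood and lymph vessels of the heart, and the endocardium is the endothelium of its chambers. The genes described here are 37 zebrafish genes widely used to mark these linings, taken by name from a fixed list, and all 37 were found among the 32520 genes of the counts table. Bulk RNA of the ventricle was sequenced from adult F1 zebrafish with uninjured mothers. The fathers were either uninjured (4 libraries, numbered 1, 3, 4 and 5) or had received a cryoinjury, in which a cold probe kills part of the heart wall, and were mated 7 days later (4 libraries, numbered 1, 2, 4 and 7). No offspring was injured, and every library pooled 4 sibling fish after the atrium and the bulbus arteriosus had been taken off and the ventricle had been opened to release red blood cells. Strain and exact age are not given in the sources used here, and neither is the number of fathers behind the pools. The p-values below therefore measure how pools vary, which may not be how fathers vary. Libraries held between 8441014 and 16290169 counts.

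Blood vessel endothelium grows and survives under VEGF, which binds receptors such as Kdrl, Kdr and Flt1, while Flt4 binds VEGFC and serves lymphatic growth. ETS factors (fli1a, fli1b, erg) and SoxF factors (sox7, sox17, sox18) keep the endothelial programme on, and VE-cadherin (cdh5) with other adhesion proteins holds the lining together. Endocardial cells respond to the beat and flow of blood through the klf2 genes and Notch receptors, and nfatc1 marks the endocardium that forms valves. The adult zebrafish ventricle also carries coronary vessels and lymphatics. The genes were placed by these known roles into 19 pan-endothelial, 6 endocardial or shear-responsive, 6 coronary and 6 lymphatic genes; the placement was not checked against sorted cells.

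Genes of the blood vessel and chamber lining spanned high to low levels, and most lymphatic genes were low. Together the 37 genes took between 0.189% and 0.291% of a library's counts, and of the 36 with enough counts to be tested 10 stood below the median log2 CPM of all genes tested. Levels of different genes are given as CPM (read counts scaled to a common library total, adjusted by TMM factors) per kilobase of exon, averaged over the 8 libraries. The water channel gene aqp8a.1 led with 408 CPM per kilobase, followed by the matrix proteoglycan gene spock3 with 146 and cdh5 with 60.4. Their mean CPM before division by length was similar, at 420, 398 and 409. The steps between them thus rest on exon lengths of 1029, 2719 and 6772 bases. Next in level per kilobase were clec14a, a membrane lectin gene, with 56.4, the secreted factor gene egfl7 with 37.5, kdrl with 36.7, fli1a with 33.2 and the transcription factor gene prox1a with 27.7. At the low end were the guidance receptor gene robo4 with 0.185, the scavenger receptor gene stab2 with 0.117 and the hyaluronan receptor gene lyve1b with 0.0971 CPM per kilobase. Of the 36 neighbouring steps in this order, 2 had ranges over the 8 libraries that did not overlap, from aqp8a.1 to spock3 and from spock3 to cdh5. The step from clec14a to egfl7 had overlapping ranges but kept its order within every library, while the other neighbours changed places between libraries.

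**Figure D1:**
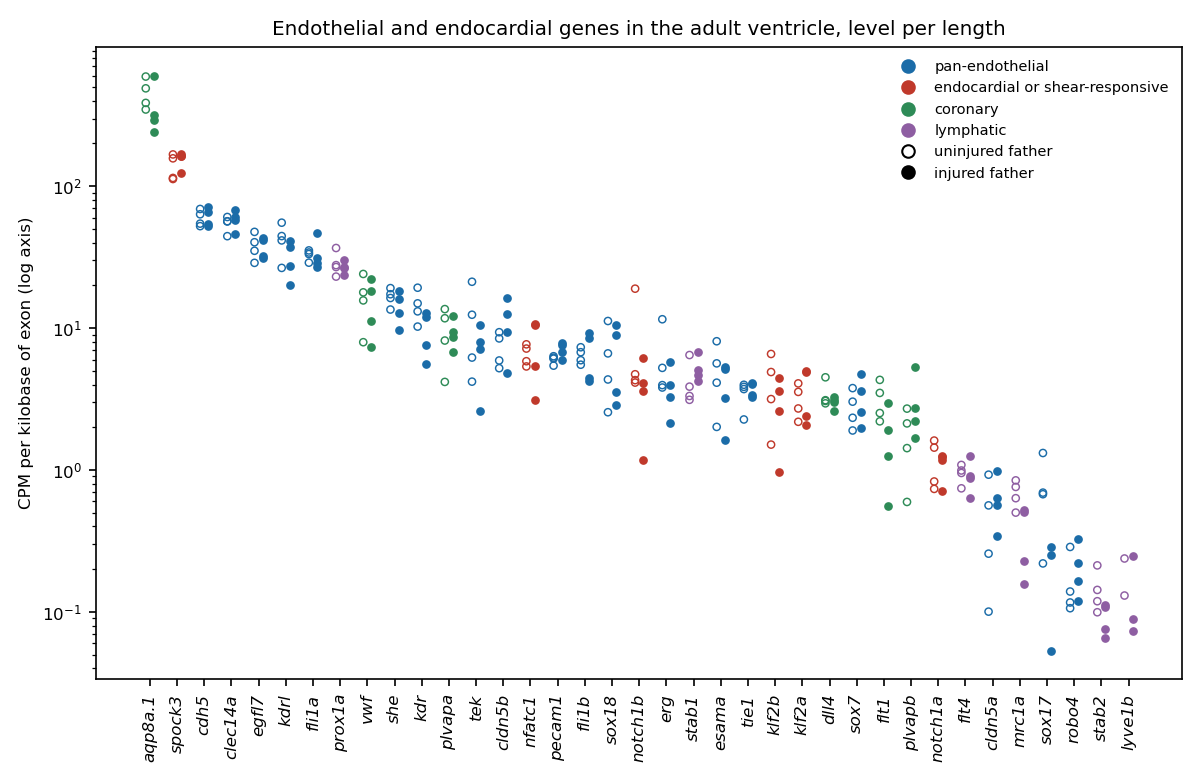
Level of each of the 37 genes in CPM per kilobase of exon on a log axis, ordered by the mean over 8 libraries; open points are the 4 libraries of uninjured fathers, filled points those of injured fathers, and values of 0 (in sox17 and lyve1b) are not drawn. The level runs from 408 CPM per kilobase in aqp8a.1 to 0.0971 in lyve1b, and open and filled points overlap in every gene.

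Most pairs of paralogues, related genes that arose by duplication, differed in level per kilobase. Kdrl was above kdr in 8 of 8 libraries, with a ratio between 2.59 and 3.60. Fli1a was above fli1b in 8 of 8 libraries (ratio 3.67 to 6.72), notch1b above notch1a in 8 of 8 (1.67 to 13.2) and cldn5b, a tight junction claudin gene, above cldn5a in 8 of 8 (4.89 to 52.0). Plvapa, of the diaphragm protein of vessel pores, was above plvapb in every library, since the plvapb to plvapa ratio lay between 0.143 and 0.439. Stab1 was above stab2 with a ratio of 15.6 to 71.6. The flow-responsive pair had no fixed order per kilobase: klf2a was above klf2b in 5 of 8 libraries and the ratio ran from 0.413 to 2.49. In CPM not divided by length, klf2b was above klf2a in every library. The order therefore depends on the exon lengths, 6004 bases for klf2b and 2180 for klf2a. These are ratios of levels per length and carry no test, and reads that copies share were not examined.

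The comparison asks whether the lining of the ventricle differed between offspring of injured and of uninjured fathers. It was made with edgeR's quasi-likelihood test across all 13604 genes with enough counts, which held 36 of the 37 genes; lyve1b did not pass the count filter, with 4, 2, 0 and 0 counts in the uninjured-father libraries and 1, 1, 4 and 0 in the others. After Benjamini-Hochberg adjustment over all genes 0 of the 36 were called, where 0% of all tested genes were. An unadjusted p under 0.05 was reached by 3 of the 36 (8.33%), against 7.14% of all genes tested; all 3 were lower with injured fathers (3.47% of all genes) and 0 were higher (3.67% of all genes). Limma voom counted 4 and DESeq2 5 members at that limit, and neither called a member after adjustment. Over all genes tested, DESeq2 called 63 after adjustment and limma voom 0. The share of all genes at an unadjusted p under 0.05 was not counted in those fits. Groups did not overlap in 0 of the 36, against 4.18% of all tested genes, 1.58% with the injured-father group below and 2.6% with it above. The median log2 fold, injured minus uninjured, was -0.03 over the 36 genes and -0.01 over all genes tested, and 20 of 36 folds (55.6%) were below 0, against 51.4% of all genes. In bulk RNA, fewer cells of a type and less RNA per cell cannot be told apart.

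**Figure D2:**
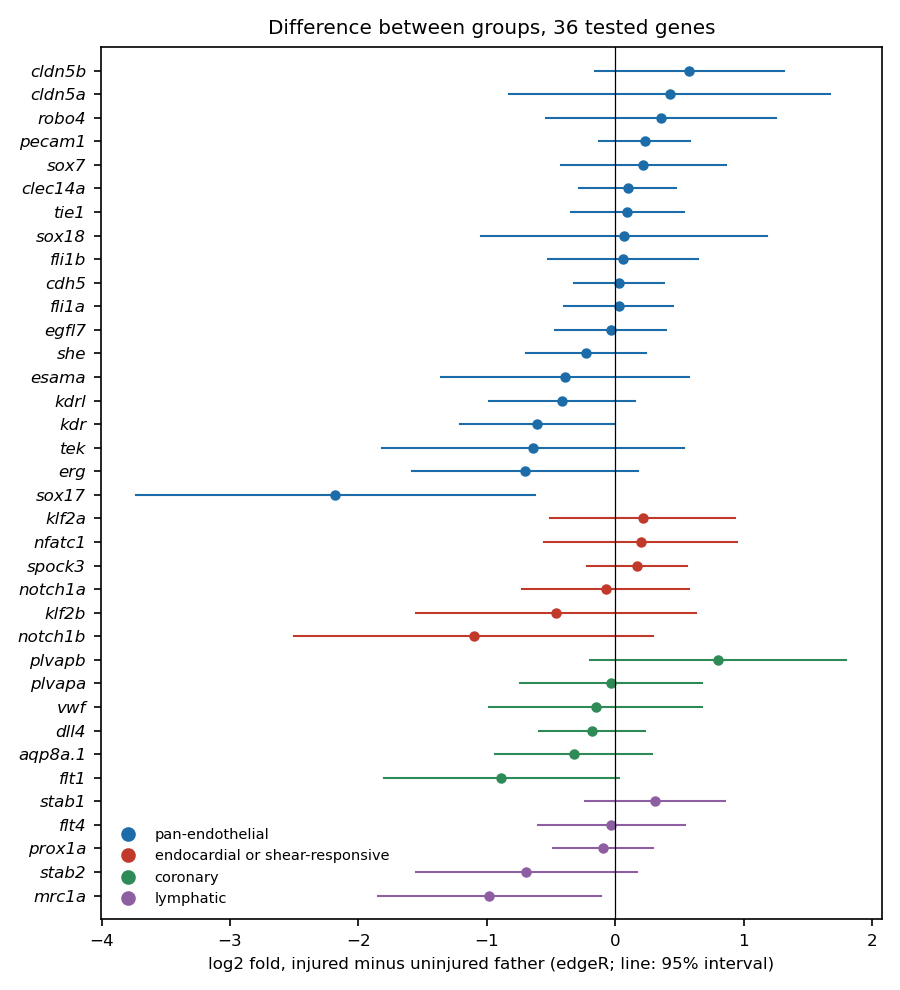
Log2 fold (injured minus uninjured father) of the 36 tested genes by role, from edgeR; points are estimates and lines 95% intervals. The folds spread on both sides of 0, from -2.18 in sox17 to 0.80 in plvapb, and the interval lies wholly below 0 in sox17, mrc1a and, barely, kdr.

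The 19 pan-endothelial genes had a median log2 fold of 0.03, with 11 positive and 8 negative (42.1%, against 51.4% of all genes). An unadjusted edgeR p under 0.05 was reached by 2 (10.5%), both lower, against 7.14% of all genes in either direction and 3.47% lower. Those that hold the lining together had overlapping levels in the 2 groups, as did all 36 tested genes. Cdh5 (ENSDARG00000075549, GRCz11 chromosome 7, 44445595 to 44471544) was at 369, 429, 354 and 468 CPM with uninjured fathers and at 354, 484, 445 and 367 CPM with injured fathers. The groups overlapped fully, and the log2 fold was 0.03 (SE 0.16) with a 95% interval of -0.32 to 0.38. Pecam1, an adhesion gene matched through its synonym pecam1a, had means of 32.2 ± 2.12 and 37.7 ± 4.46 CPM (SD, n = 4), a log2 fold of 0.23 with an interval of -0.12 to 0.58. Clec14a had a log2 fold of 0.10 (SE 0.17) and egfl7 of -0.04 (SE 0.20). The signalling adaptor gene she had a log2 fold of -0.23 (SE 0.22), and robo4, from 16 to 48 counts per library, of 0.35 (SE 0.41). Cldn5b stood at 15.4, 13.9, 9.73 and 8.59 CPM with uninjured fathers against 7.89, 15.5, 20.7 and 26.6 CPM with injured fathers. The highest 3 of these 8 values, 15.5, 20.7 and 26.6 CPM, were all in injured-father libraries, but the lowest one was there too, and the log2 fold was 0.57 (SE 0.34, edgeR adjusted p 0.74). It was 0.30 without the injured-father library numbered 7. With the library numbers as a replicate block it was 0.07. That value rests only on the libraries numbered 1 and 4, the numbers both groups share, and the labels do not say that numbers pair libraries. Cldn5a had between 2 and 20 counts per library and a log2 fold of 0.42 (SE 0.57). Esama, an adhesion gene, had a log2 fold of -0.39 (SE 0.44).

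The VEGF receptor genes kdr and kdrl had lower means with injured fathers, with overlapping groups. Kdr (ENSDARG00000017321, chromosome 20, 22220988 to 22277544) was at 80.4, 70.6, 104 and 55.1 CPM with uninjured fathers and at 64.3, 40.9, 29.9 and 68.2 CPM with injured fathers. The uninjured-father library numbered 5 lay below the injured-father libraries numbered 1 and 7, and the other uninjured-father libraries lay above all of the injured group. The log2 fold was -0.61 (SE 0.28; edgeR p 0.0498, adjusted over all genes 0.70). It was -0.44 without the uninjured-father library numbered 4 and -0.42 without the injured-father library numbered 4. Since these held its highest and its lowest value, leaving out either had to raise the fold. With the haemoglobin share of each library as a covariate it was -0.21, and in none of these fits was the edgeR p under 0.05. That share was 0.0900% to 0.171% with uninjured fathers and 0.155% to 0.360% with injured fathers. The covariate is thus partly tied to the group, and that fit cannot fully separate them. The related receptor gene kdrl (ENSDARG00000105215, chromosome 14, 32983769 to 33044955) was at 240.2, 258, 320.3 and 154 CPM against 215, 158, 116 and 239.8 CPM. The lowest kdrl value was in the injured-father library numbered 4 and the next in the uninjured-father library numbered 5; the log2 fold was -0.42 (SE 0.26, adjusted p 0.75). Flt1, a VEGF receptor that largely works as a trap for the ligand, is placed with the coronary genes below. Flt4 had means of 4.95 ± 0.760 and 4.82 ± 1.35 CPM (SD, n = 4) and a log2 fold of -0.03.

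The Tie receptor genes had folds of opposite sign, each with an interval that included 0. Tek, the angiopoietin receptor gene, was at 43.9, 21.9, 75.1 and 14.8 CPM with uninjured fathers and at 37.1, 25.2, 9.25 and 28.4 CPM with injured fathers, a log2 fold of -0.64 (SE 0.53). Tie1, of the partner receptor, was at 35.3, 34.0, 20.8 and 36.5 CPM against 30.0, 37.2, 31.0 and 36.8 CPM, a log2 fold of 0.09 (SE 0.20). The uninjured-father library numbered 4 was the highest of the 8 for tek and the lowest for tie1. The difference between these folds was not tested.

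Of the transcription factor genes, fli1a and fli1b had log2 folds of 0.03 (SE 0.19) and 0.06 (SE 0.27). Fli1a was at 110.7, 108, 93.8 and 114 CPM with uninjured fathers and at 102, 93.0, 87.8 and 152 CPM with injured fathers, so that the highest and the lowest library were both in the injured-father group. Fli1b (matched as fli1rs) was at 19.1, 20.7, 16.8 and 15.6 CPM against 24.1, 12.1, 12.7 and 26.3 CPM, again with both extremes in that group. Fli1b lies on chromosome 16, 3.77 kb from etv2, the ETS gene that starts the endothelial programme in the embryo, and fli1a lies 127 kb from ets1 on chromosome 18. Erg had means of 7.86 ± 4.68 and 4.84 ± 1.94 CPM (SD, n = 4) and a log2 fold of -0.70 (SE 0.40), with 14.8 CPM in the uninjured-father library numbered 4.

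Sox17, a SoxF gene of arterial endothelium (ENSDARG00000101717, chromosome 7, 58772209 to 58776400), had the smallest p of the 36. It was at 1.97, 1.92, 3.75 and 0.625 CPM with uninjured fathers, from 27, 24, 52 and 8 counts, and at 0.718, 0, 0.152 and 0.817 CPM with injured fathers, from 8, 0, 2 and 14 counts. The highest 3 libraries were of uninjured fathers, and the uninjured-father library numbered 5 lay below the injured-father libraries numbered 1 and 7. The log2 fold was -2.18 (SE 0.71; edgeR p 0.0101, adjusted over all genes 0.58), and it was -1.43 without both libraries numbered 4. The other SoxF genes had log2 folds of 0.07 (SE 0.50) for sox18 and 0.22 (SE 0.29) for sox7. Its counts were low, between 0 and 52 per library.

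Among the endocardial and shear-responsive genes the median log2 fold was 0.05, with positive folds in 3 of the 6 genes. None of the 6 had an edgeR p under 0.05 before adjustment, against 7.14% of all genes tested. Spock3 (ENSDARG00000070266, chromosome 1, 20635190 to 20706296), the most abundant of them, was at 311, 427, 306 and 455 CPM with uninjured fathers and at 336, 458, 445 and 443 CPM with injured fathers. The groups overlapped, and the log2 fold was 0.17 (SE 0.18), with an interval of -0.22 to 0.56. Nfatc1 was at 20.9, 28.0, 30.0 and 22.8 CPM against 42.0, 21.1, 12.1 and 41.2 CPM, so that the injured-father libraries held both the highest pair and the lowest value; its log2 fold was 0.20 (SE 0.34).

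The klf2 genes, which flow switches on, differed in the sign of their folds, but each fold was smaller than its SE. Klf2a was at 7.74, 8.88, 5.91 and 4.76 CPM with uninjured fathers and at 4.49, 5.27, 10.7 and 10.9 CPM with injured fathers, a log2 fold of 0.21 (SE 0.33). Klf2b was at 29.4, 19.0, 39.4 and 9.06 CPM against 15.7, 5.82, 21.6 and 26.8 CPM, a log2 fold of -0.46 (SE 0.49). Without the uninjured-father library numbered 4 it was -0.12, and without the injured-father library numbered 2 it was -0.18. With the replicate block it was -0.89, a value that rests only on the libraries numbered 1 and 4, which the labels do not pair. Klf2b ranged 6.77-fold over the 8 libraries.

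Of the Notch receptor genes, notch1b had the largest negative fold of the endocardial group, with its highest and lowest values in the libraries numbered 4. Notch1b (ENSDARG00000052094, chromosome 5, 65679595 to 65782785) was at 37.4, 32.6, 149.9 and 34.0 CPM with uninjured fathers and at 48.3, 32.3, 9.33 and 28.4 CPM with injured fathers. The value of 149.9 CPM, in the uninjured-father library numbered 4, was above all others, and 9.33 CPM in the injured-father library numbered 4 was below all others; the remaining 6 lay between 28.4 and 48.3 CPM. The log2 fold was -1.10 (SE 0.62, adjusted p 0.74). It was -0.23 without the uninjured-father library numbered 4 and 0.06 without both libraries numbered 4. Since these held its highest and lowest values, leaving them out had to raise the fold. Notch1a was at 13.5, 6.16, 12.04 and 6.95 CPM against 10.6, 9.89, 5.92 and 10.4 CPM, a log2 fold of -0.07 (SE 0.30). Dll4, a Notch ligand gene of arterial cells, had the narrowest range of the coronary group, 1.73-fold over the libraries, with means of 25.1 ± 5.42 and 22.1 ± 2.07 CPM (SD, n = 4).

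**Figure D3:**
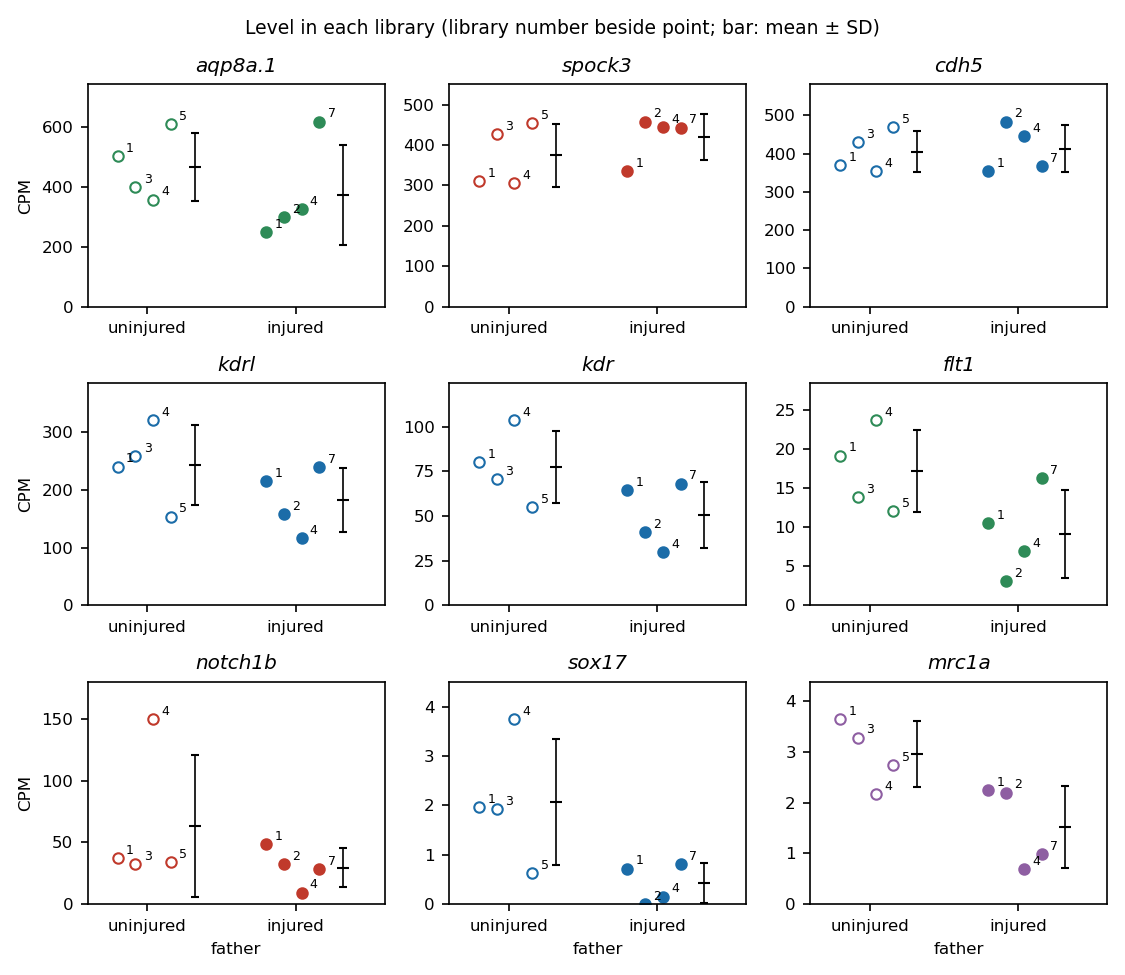
CPM of 9 of the genes in each library, with the library number beside each point; open points are uninjured fathers, filled points injured fathers, and bars the mean ± SD of 4 libraries. In every panel the groups overlap, and the notch1b panel shows 149.9 CPM in the uninjured-father library numbered 4.

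Coronary genes had a median log2 fold of -0.17, with 5 of 6 negative, against 51.4% of all genes. An unadjusted edgeR p under 0.05 was reached by 0 of the 6, against 7.14% of all genes. Without the uninjured-father library numbered 4 the median was 0.04. Aqp8a.1 (listed as AQP8; ENSDARG00000045141, chromosome 12, 20366109 to 20373058) was at 504, 398, 357 and 610.0 CPM with uninjured fathers and at 248, 300.2, 325 and 618 CPM with injured fathers. Of the injured-father libraries, those numbered 1, 2 and 4 lay below every uninjured-father library, while the one numbered 7 was the highest of the 8. The log2 fold was -0.33 (SE 0.28, adjusted p 0.81), and without the injured-father library numbered 7 it was -0.68, where edgeR gave p 0.00797 and, adjusted, 0.358. With the haemoglobin share, which was partly tied to the group, as a covariate the fold was -0.11. An unadjusted p under 0.05 was reached in 1 of 18 alternatives. Over all 18 its adjusted p lay between 0.358 and 0.9998.

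Flt1 (ENSDARG00000019371, chromosome 24, 21750810 to 21808819) was at 19.2, 13.8, 23.7 and 12.1 CPM with uninjured fathers and at 10.5, 3.08, 6.90 and 16.3 CPM with injured fathers. The injured-father libraries numbered 1, 2 and 4 were below all uninjured-father libraries, and the one numbered 7 was not. The log2 fold was -0.89 (SE 0.42; edgeR p 0.0556, adjusted 0.70), and it was -1.33 without the library numbered 7 and -0.56 with the haemoglobin share as a covariate. Plvapb was at 2.99, 5.68, 4.47 and 1.25 CPM against 3.499, 5.71, 11.2 and 4.67 CPM, a log2 fold of 0.80 (SE 0.46). That fold was 0.36 without the injured-father library numbered 4 and -0.03 with the haemoglobin share as a covariate. For flt1 and plvapb alike, that covariate was partly tied to the group. Plvapa was at 19.6, 28.1, 32.6 and 9.99 CPM against 20.8, 22.3, 29.0 and 16.2 CPM, a log2 fold of -0.03 (SE 0.32). Vwf, the clotting factor gene that thrombocytes also use, had means of 145 ± 58.7 and 130.2 ± 59.1 CPM (SD, n = 4), a log2 fold of -0.15.

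Of the 6 lymphatic genes, flt4, mrc1a, stab2 and lyve1b ranked 31, 33, 36 and 37 of the 37 in level per kilobase, while prox1a ranked 8 and stab1 21. Mrc1a, a mannose receptor gene (ENSDARG00000102100, chromosome 7, 58892856 to 58952382), was at 3.65, 3.28, 2.16 and 2.73 CPM with uninjured fathers, from 50, 41, 30 and 35 counts, and at 2.24, 2.20, 0.683 and 0.992 CPM with injured fathers, from 25, 20, 9 and 17 counts. The groups overlapped by a narrow margin, since the uninjured-father library numbered 4 lay just below the injured-father libraries numbered 1 and 2. The log2 fold was -0.98 (SE 0.40; edgeR p 0.0296, adjusted 0.64). Stab2 was at 0.803, 0.960, 1.154 and 1.72 CPM against 0.897, 0.879, 0.607 and 0.525 CPM, a log2 fold of -0.69 (SE 0.40) from 8 to 22 counts per library. Stab1 was at 28.5, 58.9, 35.3 and 30.3 CPM against 61.6, 46.4, 38.5 and 42.4 CPM, a log2 fold of 0.31 (SE 0.25). Prox1a, which in mice heart muscle uses as well, had means of 86.1 ± 17.3 and 80.5 ± 8.12 CPM (SD, n = 4) and a log2 fold of -0.10 (SE 0.18). The median log2 fold of the 5 tested lymphatic genes was -0.10, with 4 negative (80%, against 51.4% of all genes). An unadjusted edgeR p under 0.05 was reached by 1 (20%), mrc1a, against 7.14% of all genes in either direction and 3.47% lower. A difference in lyve1b was not detectable at this depth.

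The members with the smallest p, sox17 and mrc1a, are neighbours on chromosome 7, 116 kb apart. Of the genes annotated between them, MRPL15, of a mitochondrial ribosome subunit, had means of 47.6 ± 3.00 and 48.9 ± 7.95 CPM (SD, n = 4) and a log2 fold of 0.04, and LYPLA1 had a log2 fold of 0.13. Sox32, an endoderm factor gene of the embryo that also lies between them, had 2 counts in all. This pair was noticed after the values were seen.

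Pathway genes around the members gave the same count after adjustment, 0 called in each list. Of 9 tested VEGF ligand and co-receptor genes, 8 had a negative log2 fold (median -0.27; 51.4% of all genes were negative) and 0 an unadjusted p under 0.05; vegfd was at 4.24 ± 3.19 and 2.29 ± 0.269 CPM (SD, n = 4), with 8.90 CPM in the uninjured-father library numbered 5, and pgfb had a log2 fold of -0.48. Of 11 Notch partners and targets, 6 were positive and 5 negative (median 0.03), with notch2 at -0.54 and dlc at 0.41, and 0 reached p under 0.05. Of 8 angiopoietin, apelin and chemokine genes, 4 were positive and 4 negative (median 0.07). In this list 1 gene (12.5%) reached it, and was lower, against 7.14% of all genes in either direction and 3.47% lower. That gene was cxcl12a, of a chemokine that guides vessel growth, at 35.4, 30.1, 20.1 and 31.7 CPM against 20.8, 19.2, 15.5 and 22.0 CPM. Its log2 fold was -0.60 (SE 0.21, edgeR p 0.0145, adjusted p 0.58). Its copy cxcl12b had a log2 fold of -0.48 (SE 0.38).

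Of 11 flow-sensing, BMP receptor and CCM genes (CCM proteins restrain klf2 in the endocardium), 5 were positive and 6 negative (median -0.16), and 2 (18.2%) reached an unadjusted p under 0.05, both lower, against 7.14% of all genes in either direction and 3.47% lower. Heg1, the membrane partner of the CCM proteins, was at 146, 171, 195 and 78.5 CPM with uninjured fathers and at 103, 79.8, 66.9 and 85.6 CPM with injured fathers. Its uninjured-father library numbered 5 lay within the injured group and the other uninjured-father libraries lay above it; the log2 fold was -0.82 (SE 0.26; edgeR p 0.00806, adjusted 0.56). The flow-responsive factor gene klf4 was at 3.59 ± 1.03 and 1.81 ± 1.07 CPM (SD, n = 4), a log2 fold of -0.96 (SE 0.43, edgeR p 0.0461, adjusted p 0.70). Of 10 endothelial transcription factor genes outside the members, 5 were positive and 5 negative (median -0.01), with lmo2 at 0.52 and ets1 at -0.52. All 5 tested genes of lymphatic growth and guidance had negative folds (median -0.48; 51.4% of all genes were negative), with cdh6 at -0.66 and svep1 at -0.30, and 0 reached p under 0.05.

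Libraries differed in endothelial genes within the groups as well as between them. The median SD over the 8 libraries was 0.48 on the log2 CPM scale for the 36 genes and 0.35 for all genes tested. This SD mixes the spread within groups with the difference between them. The uninjured-father library numbered 4 was the highest of the 8 for 14 of the 36 genes (38.9%, against 24.0% of all genes), and the injured-father library numbered 4 was the lowest for 12 (33.3%, against 21.0%). In 8 genes (22.2%, against 11.8% of all genes) both held: kdrl, kdr, tek, erg, esama, she, vwf and notch1b. Other members ran the opposite way in the first of these libraries: it was the lowest of the 8 for cdh5, clec14a, tie1, pecam1, spock3 and prox1a. With both of these libraries left out, the log2 fold of kdr was -0.25, of kdrl -0.09, of tek 0.16, of erg -0.01 and of notch1b 0.06. These libraries were singled out after the values were seen. The genes just named were among the 8 that were highest in the first and lowest in the second. Leaving both out therefore had to raise each fold, and no conclusion can be drawn from the rise.

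**Figure D4:**
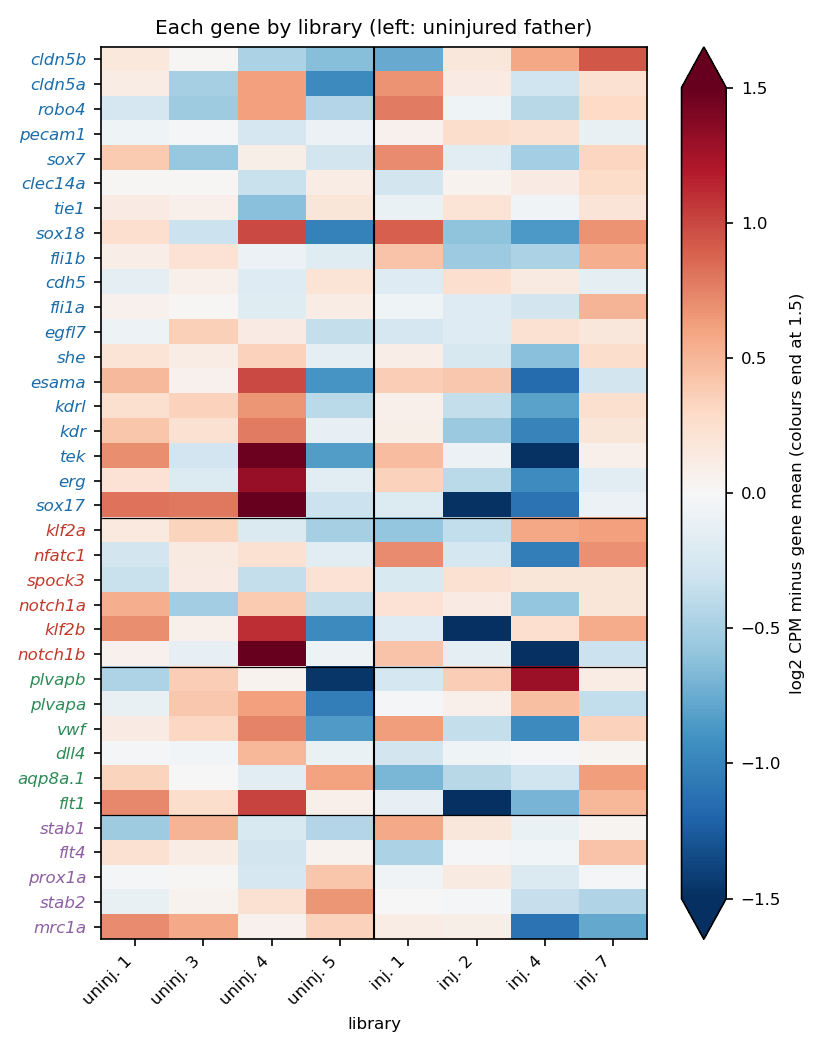
Log2 CPM of the 36 tested genes in each library minus the gene's mean over 8 libraries (red above, blue below; colours end at 1.5), grouped by role, with uninjured fathers left of the vertical line. The uninjured-father library numbered 4 and the injured-father library numbered 4 hold many of the strongest reds and blues, 14 of 36 genes being highest in the first and 12 lowest in the second.

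Markers of other cell types were measured in the same libraries. Cardiomyocyte genes (7 of 8 names matched, to 6 distinct genes) summed to 110164 to 133993 CPM with uninjured fathers and to 96288 to 123550 with injured fathers, the largest sum of any list. Mural cell genes (6 of 6 matched, the cells that wrap vessels) summed to 157 to 404 CPM and to 117 to 232 CPM; the highest sum was in the uninjured-father library numbered 4 and the lowest in the injured-father library numbered 4. Most of that sum was abcc9, with 364 and 97.1 CPM in these libraries. Its mean over all libraries was 202 CPM, against 10.9 for pdgfrb and 7.87 for cspg4. Whether the abcc9 reads came from mural cells was not tested. Of the 6 mural genes, abcc9, pdgfrb, cspg4 and kcnj8 were highest in the first and abcc9, cspg4 and kcnj8 lowest in the second, while rgs5b was highest in the second. Red blood cell genes (5 of 7 matched) summed to 398 to 713 CPM with uninjured fathers and to 558 to 1812 with injured fathers, the highest in the injured-father library numbered 4. Most of that sum was hbaa1, with a mean of 534 CPM. All 5 had positive log2 folds (median 0.85; 51.4% of all genes were negative). Of them 2 (40%) reached an unadjusted edgeR p under 0.05, against 7.14% of all genes. Cahz did not overlap between groups, as was so with injured fathers above in 2.6% of all genes. Haemoglobin genes took 0.0900% to 0.171% of counts with uninjured fathers and 0.155% to 0.360% with injured fathers. With that share as a covariate the median log2 fold of the members was 0.04. Since the share was partly tied to the group, this fit cannot fully separate them. Thrombocyte genes (5 of 6 matched), whose cells also make vwf, summed to 22.4 to 36.3 and 29.9 to 36.4 CPM. Macrophage genes (6 of 8 matched) summed to 147 to 207 and 162 to 331 CPM. Most of the macrophage sum was cd74a, with a mean of 185 CPM against 9.62 for marco and 5.75 for csf1ra. Marco was higher in every injured-father library than in any uninjured-father one (log2 fold 0.80, edgeR adjusted p 0.52), while csf1ra had a log2 fold of -0.16. Epicardial genes (6 of 6) summed to 90.3 to 137 and 83.3 to 102 CPM, fibroblast genes (6 of 6) to 386 to 506 and 362 to 470.3 CPM, and smooth muscle genes (5 of 5) to 137 to 231 and 124 to 168 CPM. Lymphocyte genes (6 of 6) stayed at or below 2.24 CPM in sum. Neutrophil genes (4 of 5 matched) stayed at or below 29.5, with lyz at 0 counts in every library. The atrial genes myh6 and nppa summed to 1304 to 1950 CPM over all libraries. Most of that sum was nppa, with a mean of 1431 CPM against 189 for myh6. Whether the nppa reads came from atrial muscle was not tested. The part of all these cell types in the endothelial values was not tested either.

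**Figure D5:**
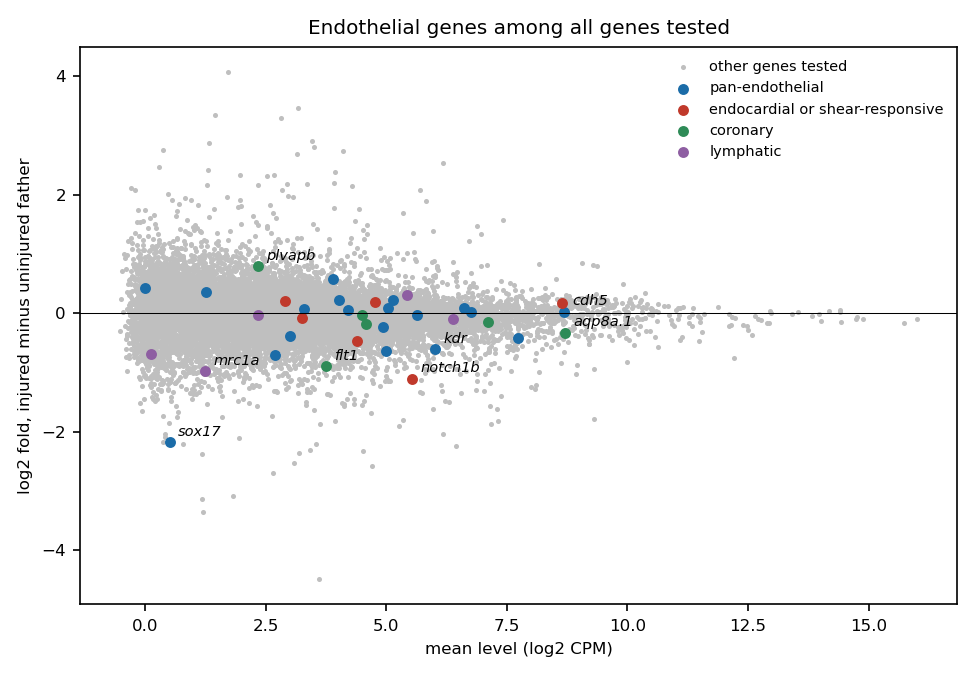
Log2 fold (injured minus uninjured father, edgeR) against mean level (log2 CPM) for the 13604 genes tested, with the 36 endothelial genes coloured by role. The coloured points lie within the grey cloud, with a median of -0.03 against -0.01 for all genes, and sox17 stands lowest at -2.18.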

How the data were processed

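The authors deposited 1 table of unnormalized read counts for every gene of 8 libraries. Per the labels' protocols, 1 ng of RNA was amplified with the Ovation Single Cell kit and read as 60-base single reads. Per the file headers, the authors counted with featureCounts 2.0.3 on Ensembl release 111 of GRCz11, with strand option 0. Per the submitters' processing notes, reads were aligned with STAR 2.7.10a. Reads from the opposite strand count toward a gene, so overlaps matter: exons of 32 of the 37 genes overlap no other gene, and at most 4.54% of the exon bases of the other 5 (tie1, robo4, vwf, stab1 and stab2) do. Amplified reads without molecular identifiers are not independent molecules. Library totals span 8441014 to 16290169 counts.

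Of the 37 genes, 26 were matched by symbol with case ignored, 3 by synonym in the RefSeq table (GRCz12tu) and 8, listed under the human name, by their neighbouring genes; of 132 other list genes, 120 were matched. Coordinates (GRCz11) come from the counts table. Sequences are not used here.

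EdgeR 4.0.16 in R 4.3.3 was run with robust quasi-likelihood fits after filterByExpr (minimum count 10) and TMM scaling, and p-values were adjusted over all 13604 genes tested, with a threshold of 0.05. Each SE was obtained from the log2 fold and its F statistic. Genes named with values in every library were chosen by rule: the 3 highest levels per length, an unadjusted p under 0.05, the 2 smallest p of each role group, and the paralogue pairs; up to 2 genes of smallest p were named per pathway list. Library values of nfatc1, tek, tie1, cxcl12a and heg1 were added after values were seen. DESeq2 1.42.0 and limma voom (limma 3.58.1) were alternatives. The scripts were tested on simulated data. The members and lists were chosen with earlier results of these data known.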

Additional observations from a re-analysis of the deposited data

Results flagged for a closer look

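In 5 of 74 group-wise checks of the 37 genes, 1 library stood apart from the other 3 of its group by Dixon's criterion; chance flags about 1 in 20. With uninjured fathers, the library numbered 4 was apart in 3 genes: dll4 (33.2 CPM against 21.8 to 22.9), notch1b (149.9 CPM against 32.6 to 37.4) and tie1 (20.8 CPM against 34.0 to 36.5). With injured fathers, spock3 was low in the library numbered 1 (336 CPM against 443 to 458) and notch1a in the library numbered 4 (5.92 CPM against 9.89 to 10.6).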

How the results depend on the processing

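No member was called under any of the 18 alternatives, of which leaving out both libraries numbered 4 was chosen after seeing the data. Genes called over all genes were 0 except with DESeq2 (63) and the replicate block (20). How many of all genes reached an unadjusted p under 0.05 was counted only in the main comparison, so the member counts below lack that background. Members at an unadjusted p under 0.05, 3 in the main comparison, were 1 with library sizes alone, with a minimum count of 30 and with the haemoglobin share as covariate, 5 with DESeq2, 6 with the replicate block, and 1 to 5 when leaving out 1 library; 1 of these was without the uninjured-father library numbered 1 or the injured-father one numbered 4, and 5 without the uninjured-father one numbered 5 or the injured-father one numbered 1. The median log2 fold of the members was -0.16 to -0.02 when leaving out 1 library, 0.01 with both libraries numbered 4 left out, 0.04 with the haemoglobin share, 0.03 with library sizes alone and -0.27 with the replicate block. That of the endocardial group was -0.41 with the block. The block rests on the numbers 1 and 4, the only ones both groups share, and the labels do not say that the numbers pair libraries. Deviations of the same-numbered libraries correlated at 0.12 and -0.30, and those of unlike-numbered libraries at -0.40 to 0.35. So few same-numbered pairs cannot decide whether the numbers pair the libraries. The coronary median was 0.04 without the uninjured-father library numbered 4. An unadjusted p under 0.05 was kept by sox17 in 15 of 17 alternatives, mrc1a in 11 of 18 and kdr in 9 of 18. Of 644 single-gene folds under alternatives, 70, in 22 genes, changed sign, each at a p of at least 0.05 in both fits. The cause of these shifts was not tested. Low counts limit sox17, mrc1a, stab2, cldn5a, robo4 and lyve1b.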
